A study of Homo sapiens with 12 samples.

Results

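miR-103 and miR-107 are a pair of closely related human microRNAs, chosen by the names hsa-miR-103 and hsa-miR-107 among the human microRNA names of the array. They are 2 of 851 such names. Both were measured in SUM159, a human triple-negative breast cancer cell line. The cells were stably infected with a PLKO.1-based lentiviral vector, in every group, that carried either an shRNA against Dicer or a scrambled control shRNA. They were grown in medium with insulin and hydrocortisone. The 4 groups, with 3 biological replicates each per the labels, were Dicer shRNA with 0.5 mM metformin, control shRNA with 0.5 mM metformin, Dicer shRNA with vehicle (PBS) and control shRNA with vehicle, all for 24 h. Metformin is a drug against type 2 diabetes. Whether either line is a clone is not given in the sources used here, and no array feature reads the Dicer mRNA, so the knockdown was not checked.

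MicroRNAs are cut from hairpin precursors by the RNase Dicer. miR-103 and miR-107 lie in introns of the genes for pantothenate kinases, the enzymes that start coenzyme A synthesis, and share their transcripts with them. Both are known for 2 activities: they pair with sites in the Dicer mRNA and lower Dicer, which has been linked to metastasis of breast cancer cells, and in liver and fat they lower insulin sensitivity through caveolin-1. The pair therefore stands both among the products of Dicer and among its regulators.

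Their sequences show how close they are. The array name miR-103 corresponds to what is now called miR-103a-3p, and the sequences below are RefSeq's (GRCh38.p14), with the seed (bases 2 to 8) in capitals.
miR-103: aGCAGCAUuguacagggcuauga
miR-107: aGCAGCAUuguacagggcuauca
The mature forms are 23 bases long and identical at 22 of them. The difference is G22C, with the base of miR-103 first and positions counted from 1 at the 5′ end. It lies outside the seed, so both have the seed GCAGCAU, which 2 of the 2370 human mature microRNAs in the RefSeq table carry. An array probe for one can capture some of the other, and the amount was not tested. Levels of the pair are therefore not set against each other here.

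The hairpins are shown because the mature strands are cut from them. The mature strand is in capitals.
MIR103A1, chr5:168560896-168560973, minus strand: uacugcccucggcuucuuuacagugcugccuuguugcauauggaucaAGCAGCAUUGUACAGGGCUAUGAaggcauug
MIR103A2, chr20:3917494-3917571, plus strand: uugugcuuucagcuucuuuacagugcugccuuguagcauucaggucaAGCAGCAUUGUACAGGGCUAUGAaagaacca
MIR107, chr10:89592747-89592827, minus strand: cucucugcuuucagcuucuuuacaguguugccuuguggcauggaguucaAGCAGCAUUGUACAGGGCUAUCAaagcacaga
In the RefSeq tables these spans lie within PANK3, PANK2 and PANK1, in that order, on the strand of the host gene. MIR103A1 and MIR103A2 give the same mature strand, so a miR-103 signal cannot be assigned to one of these 2 genes.

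The arrays detected 130 to 204 human microRNAs each, 263 on at least 1 array and 98 on all 12. Both metformin groups lay on one slide and both vehicle groups on the other, so an effect of metformin and one of the slide cannot be told apart. Within each slide, Dicer shRNA arrays followed control shRNA arrays in position, so the shRNA and the position of an array cannot be told apart. Of 6 epithelial microRNAs only miR-205 was detected, on all 12 arrays, and miR-200a, miR-200b, miR-200c, miR-141 and miR-429 were detected on 0. Of 5 blood cell microRNAs, miR-451, miR-142-3p and miR-144 were detected on 0 arrays, and miR-486-5p and miR-223 on the 3 arrays of control shRNA with metformin alone. Of 3 neural and liver microRNAs, none was detected. Of 4 muscle microRNAs, miR-1 and miR-206 were detected on 0 arrays, miR-133b on 4 and miR-133a on 10. The number of arrays, 3 a group, limits the precision of all values.

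The labels' biological replicates are not said to be separate cultures, so p-values measure the spread between these samples. The first question was how much of each microRNA the arrays read in each group, in units of the scanner's total gene signal, an intensity on a linear scale in arbitrary units. miR-103 was not detected on any of the 6 metformin arrays. Of the Dicer shRNA arrays with vehicle it was detected on replicate 3 alone, at a signal of 8.78 with a stated error of 1.57. On the control shRNA arrays with vehicle it gave 60.02, 62.0 and 69.7, with stated errors of 4.80, 4.75 and 5.48. The Dicer shRNA and control shRNA arrays with vehicle did not overlap, and the Dicer shRNA arrays lay wholly below for 39.4% of the 208 microRNAs compared later. The one detected Dicer shRNA signal stood 5.59 times above its own error, against 12.5 to 13.0 times on the control shRNA arrays. In such bulk RNA, fewer cells with the microRNA and less of it per cell cannot be told apart.

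miR-107 was detected on 3 of the 12 arrays, all of them control shRNA with vehicle. It gave 23.3, 26.1 and 34.4 there, with stated errors of 2.78, 2.60 and 3.50. All 3 Dicer shRNA arrays with vehicle and all 6 metformin arrays fell below detection. The mean on the control shRNA arrays with vehicle was 28.0 ± 5.78 (SD, n = 3) for miR-107 and 63.9 ± 5.09 (SD, n = 3) for miR-103. After scaling of the arrays the replicates spread by 21.7% of the mean for miR-107 and 9.26% for miR-103, and for each microRNA the highest value was that of replicate 3. By level, the order for miR-103 is control shRNA with vehicle, then Dicer shRNA with vehicle on the strength of 1 array. The other groups, and all but the first for miR-107, have no order among them because nothing was detected.

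**Figure D1:**
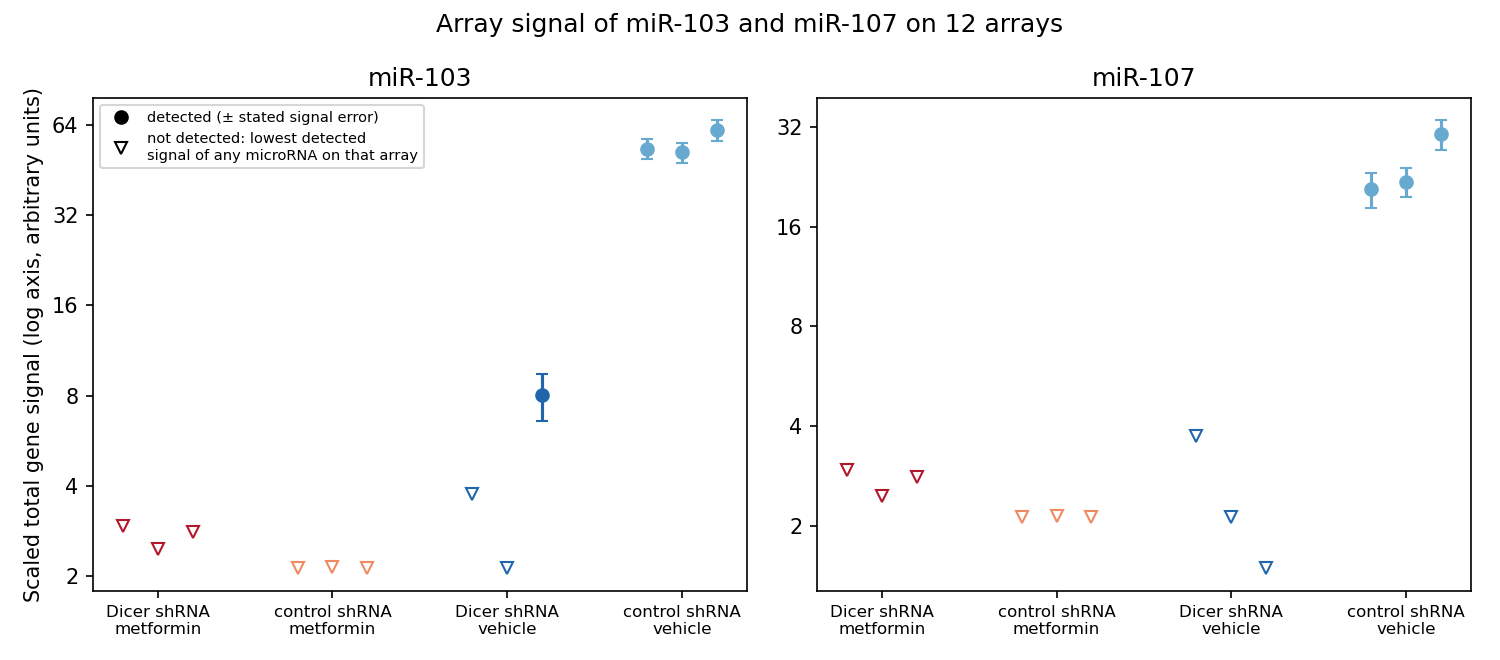
Scaled total gene signal (log axis, arbitrary units) of miR-103 (left) and miR-107 (right) on the 12 arrays, by group. Filled points are detected signals with the stated error, and open triangles mark, for arrays without detection, the lowest signal detected for any human microRNA on that array. Control shRNA with vehicle holds 3 filled points in each panel, and 1 further filled point, at 8.03 for miR-103, lies in Dicer shRNA with vehicle.

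For comparisons, signals were scaled between arrays, set to a floor of 3.01 where lower, and taken to log2 (log2 of the floor is 1.59). The 208 microRNAs detected on all 3 arrays of a group were fitted together in limma, and p-values were adjusted over all 208 by the Benjamini-Hochberg method. A call is an adjusted p under 0.05. Both microRNAs were fitted only through control shRNA with vehicle, the group in which they were high. Their calls and p-values are therefore descriptions of this detection pattern. Differences are log2 differences ± SE, with 3 arrays a group. An array set to the floor adds no spread, so the errors of microRNAs with such arrays, and their p-values, are understated.

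The second comparison set Dicer shRNA against control shRNA on the vehicle slide. Both microRNAs were lower with Dicer shRNA. On the log2 scale miR-103 averaged 2.06 ± 0.82 (SD, n = 3) in Dicer shRNA cells and 5.79 ± 0.13 (SD, n = 3) in control shRNA cells, and it fell by 3.73 ± 0.31 (adjusted p = 4.8e-06, limma). The floor limits this value, since 2 of the 3 Dicer shRNA arrays lay on it. On replicate 3, where miR-103 was read, its scaled signal of 8.03 was 6.89-fold lower than the control shRNA mean, and 6.46-fold to 7.65-fold lower than the single control shRNA arrays. On replicates 1 and 2, where it was not detected, it was at least 14.8-fold and 18.4-fold lower, taking the higher of the floor and the lowest signal detected on that array as its bound. The bound is read from other probes and holds only as far as they share a detection limit. How far the 3 Dicer shRNA arrays differed among themselves is not known, since 2 of them gave only a bound.

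miR-107 stood at the floor on all Dicer shRNA arrays with vehicle and averaged 4.58 ± 0.30 (SD, n = 3, log2 scale) on the control shRNA arrays. It was at least 7.39-fold lower in Dicer shRNA cells (adjusted p = 2.1e-08, limma). At the 6.89-fold seen for miR-103 on replicate 3, miR-107 would have read 3.47 there, against a floor of 3.01 and a lowest detected signal of 1.496 on that array. miR-107 was not detected there, but that reading is close to the floor, and the bound is read from other probes. On replicates 1 and 2 neither microRNA was read. How the fall of miR-107 compared in size with that of miR-103 could not be tested. Of all 208 microRNAs 59.6% were called in this comparison, 38.0% lower and 21.6% higher. A lower call was thus common. The 45 higher and 79 lower calls became 62 and 49 with quantile normalization, 32 and 90 with median scaling and 17 and 105 with scaling to viral probes. By size of the fitted difference, miR-103 was the 2nd lowest of 208 and miR-107 the 11th, and the median of all was 0.00.

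**Figure D2:**
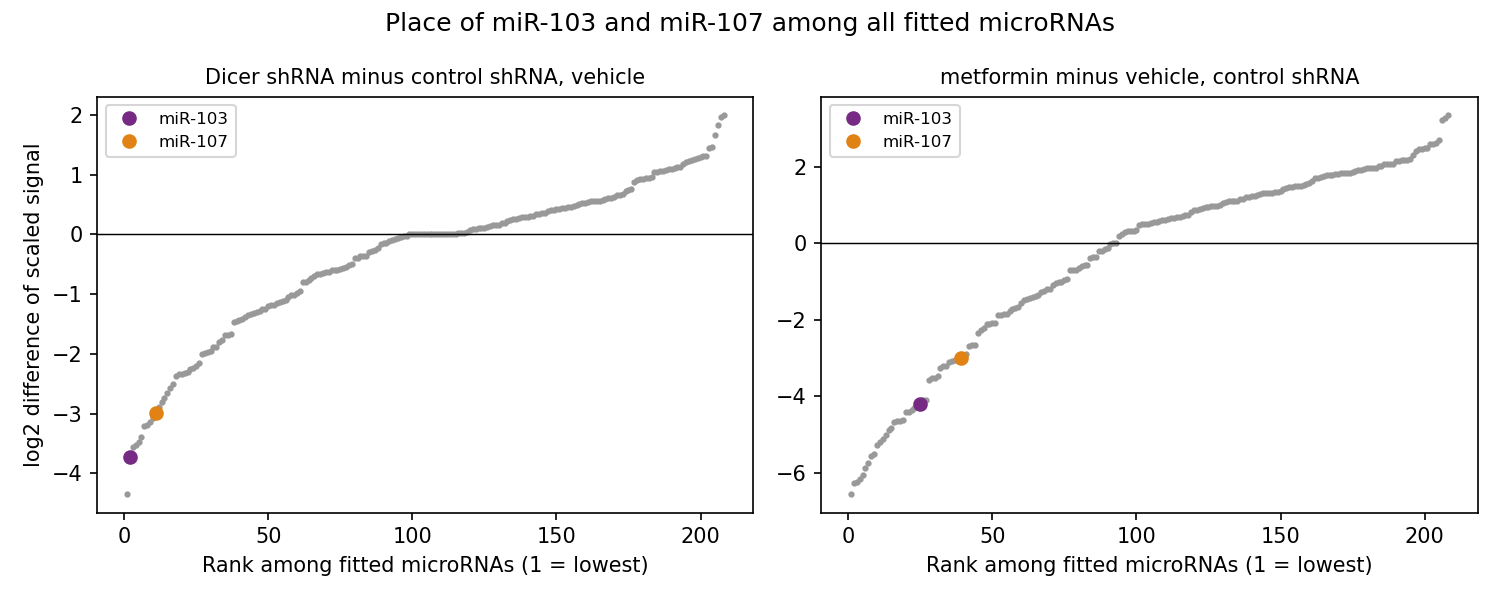
Fitted log2 differences of all 208 microRNAs in rank order (rank 1 is the lowest), for Dicer shRNA minus control shRNA with vehicle (left) and metformin minus vehicle in control shRNA cells (right). In the left panel miR-103 is at rank 2 and miR-107 at rank 11, and in the right panel they are at ranks 25 and 39. The floor bounds how low each microRNA can lie, so ranks also depend on the signal in control shRNA cells with vehicle.

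Under metformin neither microRNA was detected in Dicer shRNA or in control shRNA cells, so there is no fold for the knockdown there. The lowest signals detected for any human microRNA were 2.31 to 3.01 on the Dicer shRNA arrays and 1.88 to 1.95 on the control shRNA arrays. In this comparison 38.9% of the 208 were called, 29 higher and 52 lower, which became 23 and 106 with scaling to the median, 40 and 13 with scaling to viral probes and 31 and 36 on the series matrix. The within-slide differences were also averaged over both slides, in the same model of 4 group means and without a slide term. Dicer shRNA minus control shRNA was then -1.86 ± 0.22 for miR-103 (adjusted p = 7.5e-05, limma) and -1.50 ± 0.09 for miR-107 (adjusted p = 5.9e-07, limma). This average is the vehicle difference shared with a difference of 0.00 between floors, so it carries nothing beyond the vehicle slide. In this average 51.0% of the 208 were called, 35.6% lower. Its 32 higher and 74 lower calls became 4 and 129 with median scaling and 52 and 41 with quantile normalization.

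Metformin was then set against vehicle. In control shRNA cells both microRNAs were detected on 0 of 3 metformin arrays and on 3 of 3 vehicle arrays. miR-103 was at least 18.4-fold lower with metformin (adjusted p = 4.4e-07, limma) and miR-107 at least 7.95-fold lower (adjusted p = 8.4e-09, limma). Of the 208 microRNAs 88.0% were called in this comparison, 40.4% lower and 47.6% higher, so a call alone says little about the pair. The 99 higher and 84 lower calls became 29 and 132 with scaling to viral probes. Of the 165 microRNAs detected on all 3 control shRNA arrays with vehicle, 54 (32.7%) were detected on none of the control shRNA arrays with metformin. The fitted differences put miR-103 25th and miR-107 39th from the lowest, with a median of all of 0.52. These ranks depend on how far above the floor each microRNA was in control shRNA cells with vehicle, and are not compared with those of the knockdown.

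In Dicer shRNA cells metformin could be followed for miR-103 alone, and barely. It was detected on 0 of 3 metformin arrays and 1 of 3 vehicle arrays, and the difference of -0.47 ± 0.31 did not pass (adjusted p = 0.33, limma). miR-107 was detected on none of these 6 arrays. In this comparison 24.5% of the 208 were called, 18.3% lower. The split of these calls, 13 higher and 38 lower, turned to 34 and 12 on the series matrix and 25 and 20 with quantile normalization, and was 6 and 44 without scaling and 2 and 52 with scaling to viral probes. The interaction, the knockdown difference under metformin minus that under vehicle, was 3.73 ± 0.44 for miR-103 (adjusted p = 3.9e-05, limma) and 2.99 ± 0.18 for miR-107 (adjusted p = 3.5e-07, limma), and 76.4% of the 208 were called in it, 37.0% higher. The 77 higher and 82 lower calls became 106 and 19 with scaling to viral probes. With the metformin arrays at the floor, each of these is the vehicle difference with its sign turned.

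Other features of the arrays moved with these values. The median log2 signal of the 4 hur control features detected on all arrays, which are not microRNAs, was 11.4 to 12.01 in Dicer shRNA with metformin, 10.1 to 10.4 in control shRNA with metformin, 12.5 to 12.8 in Dicer shRNA with vehicle and 13.1 to 13.3 in control shRNA with vehicle. It was highest in the group in which the pair was detected. The median of 10 probes for viral microRNAs, again those read on each array, ran the other way, with 6.41 to 6.87, 6.83 to 7.21, 6.41 to 6.77 and 5.06 to 5.66 in the same order of groups. Markers moved as well. The summed signal of the epithelial list, all of it miR-205, was 66.7 to 98.3 in Dicer shRNA with metformin, 97.1 to 118.1 in control shRNA with metformin, 124.6 to 140.5 in Dicer shRNA with vehicle and 714.5 to 741.5 in control shRNA with vehicle. miR-205 fell 5.04-fold with Dicer shRNA on the vehicle slide and 5.13-fold with metformin in control shRNA cells. The muscle list had 2 of 4 members detected. In the same order of groups it summed to 7.90 to 18.3, 21.8 to 26.4, at most 7.13 and at most 4.96. Its miR-133a rose 5.60-fold with metformin in control shRNA cells, a size limited by the floor, since 2 of 3 vehicle arrays detected it. The blood list summed to 13.9 to 18.0 in control shRNA with metformin and was undetected elsewhere. The part of any of these in the values of miR-103 and miR-107 was not tested.

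Loss of detection in all groups but one was shared with other microRNAs. Of the 165 detected on all 3 control shRNA arrays with vehicle, 41 (24.8%) were detected on none of the 6 metformin arrays. Among them, 20 (12.1% of the 165) were detected on no Dicer shRNA array with vehicle, miR-107 being 1 of these, and 9 (5.45%) on 1 such array, among them miR-103. The exact arrays of miR-103 were those of 8 other microRNAs: let-7f, miR-106b*, miR-19a, miR-214, miR-29b, miR-30e, miR-769-5p and miR-99a. miR-107 shared its 3 arrays with 19 others, among them miR-15a, let-7i, miR-17, miR-18a and miR-20a. All 9 that include miR-103 were therefore read on replicate 3 as the single Dicer shRNA array with vehicle.

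By profile over the 12 arrays, measured as the Pearson correlation of floored log2 signals among 207 microRNAs with any spread, miR-103 was most like miR-214 (r = 0.997), miR-29c (0.989), miR-99a (0.988), miR-425 (0.984) and miR-19a (0.982). miR-107 was most like miR-18a (r = 1.00), miR-20a (0.999), let-7i (0.999), miR-29b (0.999) and miR-17 (0.999). miR-103 and miR-107 correlated at 0.975, which placed miR-107 13th for miR-103, and miR-103 18th for miR-107. These correlations describe 12 arrays in 4 groups, and most points lie at the shared floor. miR-17, miR-18a, miR-19a and miR-20a come from one transcript, the miR-17/92 cluster, known to promote growth in tumours.

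**Figure D3:**
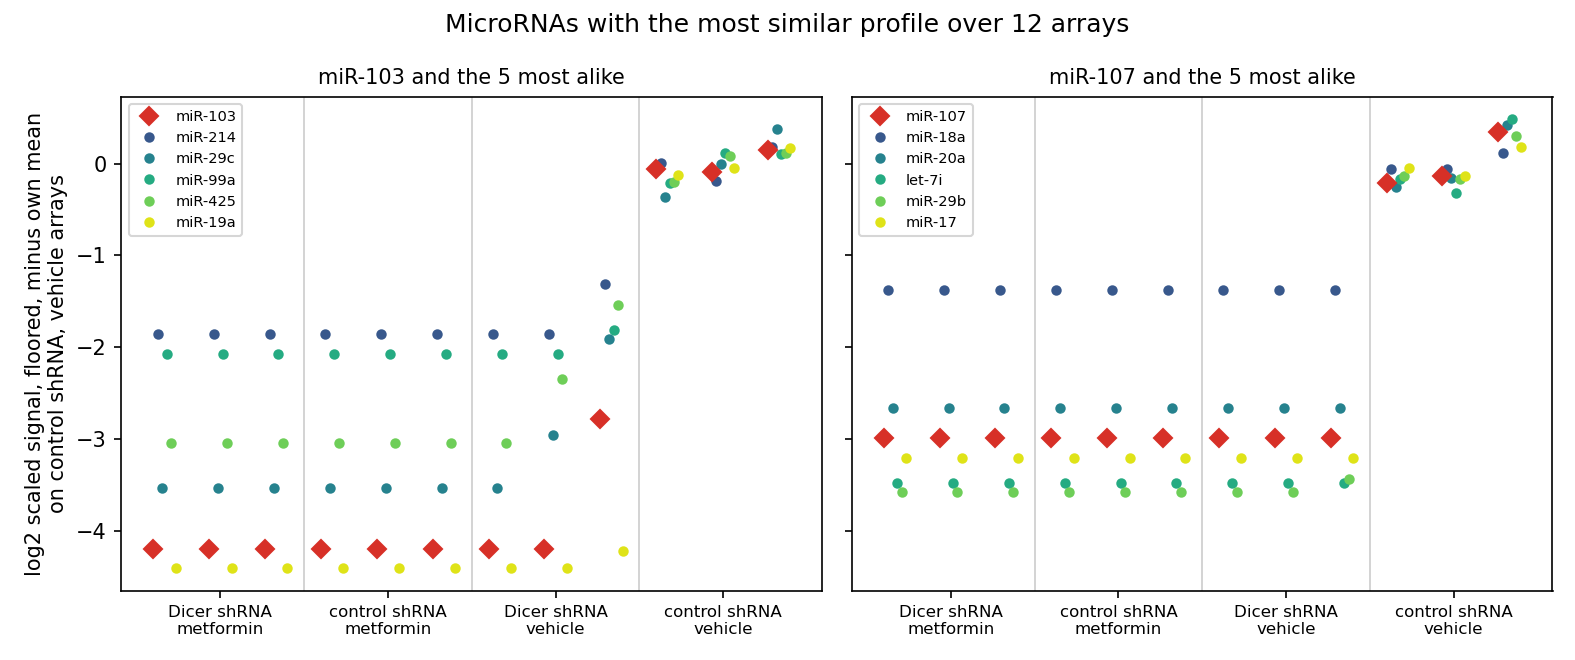
Floored log2 signals of miR-103 (left, diamonds) and miR-107 (right, diamonds) with the 5 microRNAs most like each, on the 12 arrays by group, each microRNA minus its own mean on the control shRNA arrays with vehicle. None of the microRNAs shown leaves the floor on a metformin array, so each forms a flat row there at its own distance from 0. Replicate 3 is the rightmost array of a group, and in the left panel all 6 microRNAs leave the floor on that array of Dicer shRNA with vehicle.

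The pair belongs to a wider family whose members carry AGCAGC near the 5′ end and share many targets, among them cell cycle genes such as cyclins. AGCAGC begins at base 1 in miR-103 and miR-107 and at base 2 in the other members. It lies within bases 1 to 8 of 13 of the 2370 human mature microRNAs (0.549%). The members that were detected are shown with their seeds in capitals.
miR-15a: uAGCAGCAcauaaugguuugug
miR-15b: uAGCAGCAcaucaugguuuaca
miR-16: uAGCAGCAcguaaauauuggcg
Their shared seed AGCAGCA is also that of miR-195, miR-424 and miR-497, while miR-503 and miR-646 differ at its last base. miR-195, miR-424, miR-497, miR-503 and miR-646 were detected on 0 of 12 arrays. Of the family's 10 members 5 were thus detected, and all 5 were fitted.

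With vehicle, all 5 fitted members fell in Dicer shRNA cells, with a median of -2.57 against 0.00 over all 208, of which 38.0% fell. Without the pair, the 3 other members had a median of -2.34. miR-103, miR-107, miR-15a and miR-16 were detected on all arrays of no group but control shRNA with vehicle, so they entered the fit only through the group in which they were high, and their counts and medians here are descriptions. miR-15b, which shares a transcript with one of the miR-16 genes in the SMC4 gene, was the only member read on all 6 arrays, and so gives the size of the fall without the floor. Its signals were 26.5, 34.4 and 49.0 on the Dicer shRNA arrays and 207.8, 235.8 and 260.1 on the control shRNA arrays. The 2 groups were far apart, and miR-15b fell by 2.57 ± 0.27, or 5.93-fold (adjusted p = 2.5e-05, limma). Here too replicate 3 was the highest of the Dicer shRNA arrays.

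miR-16, often lost with miR-15a in chronic lymphocytic leukaemia, was detected on 0 of 3 Dicer shRNA arrays and gave 16.3, 15.8 and 21.0 on the control shRNA arrays. It was at least 4.71-fold lower. miR-15a was also not detected with Dicer shRNA, against signals of 5.84, 10.4 and 13.0 with control shRNA. It was at least 2.47-fold lower, the smallest bound of the family.

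Under metformin none of the 5 members was called between Dicer shRNA and control shRNA cells, against 38.9% of the 208, and 3 of them were detected in neither. miR-15b (0.33 ± 0.27) was read on 1 Dicer shRNA array and no control shRNA array, and miR-16 (-0.57 ± 0.38) on no Dicer shRNA array and 1 control shRNA array. Between metformin and vehicle in control shRNA cells all 5 fell, with a median of -2.99 against 0.52 over all 208, of which 40.4% fell. That median is the value of miR-107 itself, at the floor with metformin. Without the pair, the 3 other members had a median of -1.77. The count and medians are descriptions here too. miR-15b was at least 67.4-fold lower, miR-15a at least 2.66-fold lower, and miR-16 fell by 1.77 ± 0.38, with 1 metformin array detecting it at 8.97. In Dicer shRNA cells miR-15b was the 1 member of the 5 called between metformin and vehicle, where 24.5% of the 208 were called, 18.3% lower. It fell by 3.18 ± 0.27 with metformin (adjusted p = 2.5e-05, limma), with 1 of 3 metformin arrays above the floor. Of the 5 members 3 were detected in neither of these groups and so could not be called. The median of the family, with the pair included, stayed below 0 under each scaling of the arrays. This held for both the knockdown with vehicle and metformin in control shRNA cells.

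**Figure D4:**
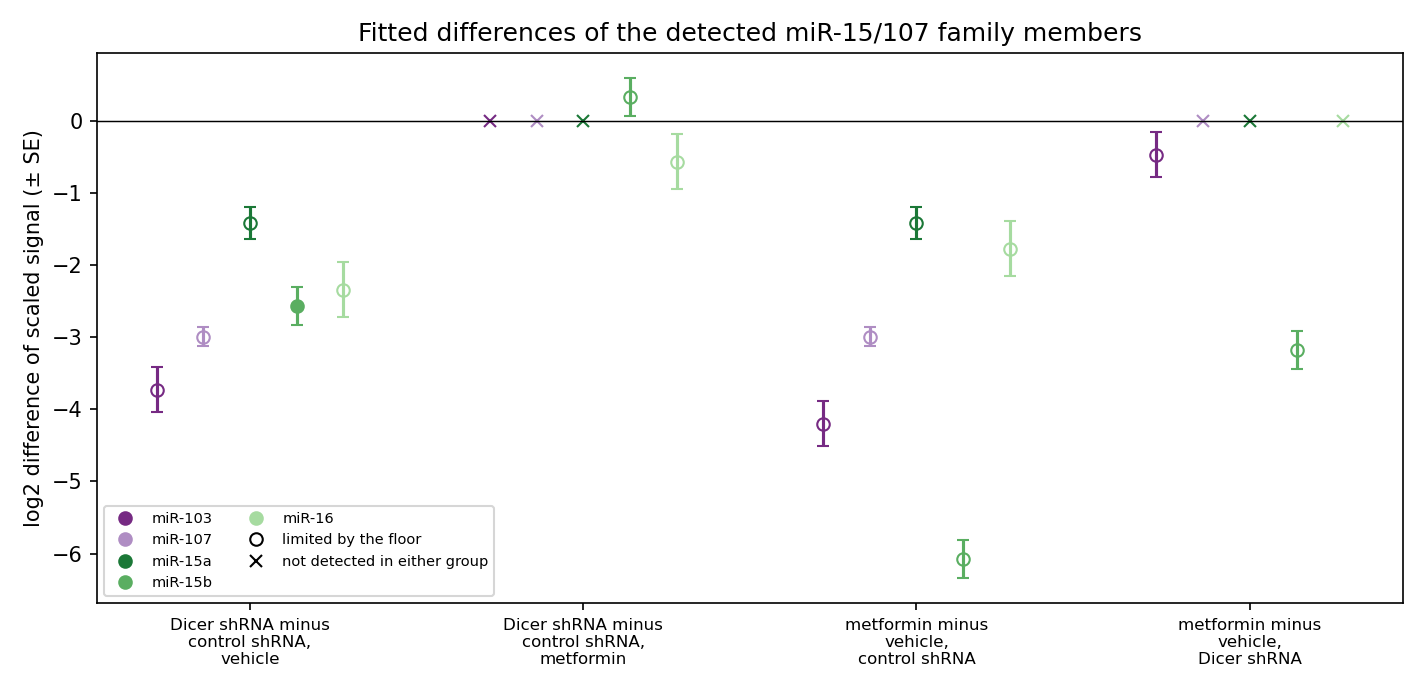
Fitted log2 differences (± SE, 3 arrays a group) of the 5 detected members of the family in 4 comparisons. Filled points are differences with detection on all arrays of both groups, open points are limited by the floor and crosses mark members detected in neither group. The one filled point is miR-15b for Dicer shRNA minus control shRNA with vehicle, at -2.57.

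let-7 microRNAs, known as tumour suppressors, also pair with the Dicer mRNA and act on insulin signalling. Of 9 on the array 8 were detected and 6 fitted, and all 6 fell in Dicer shRNA cells with vehicle (median -2.66), as did 38.0% of the 208. let-7a, let-7f, let-7g and let-7i entered the fit only through control shRNA with vehicle, so the count is a description. let-7a was read on 2 Dicer shRNA arrays, at 8.26 and 12.2, and at 72.2, 80.4 and 118.8 on the control shRNA arrays. It fell by 3.56 ± 0.40, a size limited by the floor on the other Dicer shRNA array. let-7c, read on all 6 arrays, fell by 2.25 ± 0.24. let-7f fell by 3.08 ± 0.22, a size set by the floor since 1 of 3 Dicer shRNA arrays detected it, and let-7i, detected on none, was at least 10.3-fold lower. Under metformin none of the 6 fell with Dicer shRNA. let-7b rose by 2.63 ± 0.45, a size limited by the floor, since 2 of 3 control shRNA arrays detected it. let-7c, detected on 0 of 3 control shRNA arrays, was at least 2.47-fold higher. The other 4 were detected in neither group, against 38.9% of the 208 called. All 6 fell with metformin in control shRNA cells (median -4.07), where 40.4% of the 208 fell.

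Other microRNAs in introns of protein-coding genes, which like the pair depend on a host transcript, were counted next. Without miR-103 and miR-107, 43 were on the array, 25 were detected and 20 fitted. In Dicer shRNA cells with vehicle 17 fell, 0 rose and 3 did not pass (median -1.37), against 38.0% lower and 21.6% higher among all 208. miR-106b, of the MCM7 gene, fell by 3.39 ± 0.43, with 1 of 3 Dicer shRNA arrays at the floor, miR-26a by 2.36 ± 0.23 and miR-27b by 2.32 ± 0.25, in addition to miR-15b. The 3 that did not pass, named after their values were seen, were miR-33a (0.01 ± 0.22), miR-149 (-0.02 ± 0.58) and miR-378 (-0.04 ± 0.15). miR-33a was detected on 0 of 3 control shRNA and 1 of 3 Dicer shRNA arrays, so its value is set by the floor and cannot show a lack of change. miR-149 was detected on 2 of 3 Dicer shRNA arrays. With metformin in control shRNA cells 18 of the 20 fell, against 40.4% of the 208, and miR-33a, of the sterol regulator gene SREBF2, was at least 2.84-fold higher. miR-149 (0.86 ± 0.58) did not pass. For Dicer shRNA against control shRNA under metformin, 3 of the 20 rose, 1 fell and 16 did not pass, against 38.9% of the 208 called. Of the 20, 9 were detected in neither of those groups. miR-106b, miR-128, miR-151-5p, miR-185, miR-224, miR-30e, miR-425 and miR-7 entered the fit only through control shRNA with vehicle, the group in which they were high. miR-33a entered only through control shRNA with metformin, where it was high, so the counts are descriptions.

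Of 18 other microRNAs linked to insulin action or glucose and lipid metabolism, 10 were detected and fitted. In Dicer shRNA cells with vehicle 6 fell, 3 did not pass and 1, miR-370, rose (median of the 10 -1.44). Among all 208, 38.0% were lower and 21.6% higher. The rise of miR-370, 1.83 ± 0.24, was limited by the floor, since 2 of 3 control shRNA arrays detected it. Of the 3 that did not pass, miR-223 was detected in neither group and miR-33a on 1 Dicer shRNA array alone. miR-27a fell by 3.15 ± 0.17 and miR-27b by 2.32 ± 0.25, both read on all arrays of the 2 groups. miR-29b fell by 3.53 ± 0.12 and miR-29c by 2.80 ± 0.34, sizes limited by the floor, since 1 and 2 of 3 Dicer shRNA arrays detected them. miR-29 family members act on insulin signalling in fat and muscle. For Dicer shRNA against control shRNA under metformin, 1 of the 10 rose, 3 fell and 6 did not pass, against 38.9% of the 208 called. Of the 10, 4 were detected in neither of those groups. With metformin in control shRNA cells 7 of the 10 fell and 3 rose, against 40.4% and 47.6% of the 208. The 3 were miR-370 (3.35 ± 0.24), miR-33a and miR-223, the last 2 with all vehicle arrays at the floor. The floor limits the size for miR-370 too, since 2 of 3 vehicle arrays detected it. In this list miR-29b, miR-29c and miR-34a entered the fit only through control shRNA with vehicle, the group in which they were high. Likewise, miR-33a and miR-223 entered only through control shRNA with metformin, where they were high. The counts and the median of this list are therefore descriptions. The pair moved with the majority of this list, and no test set it apart from them.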

How the data were processed

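Cy3-labelled RNA was read on 1-colour Agilent arrays, per the labels. Each deposited file gives, per name, a linear intensity (total gene signal), its error and a detection flag of 0 or 1, per the file headers, and undetected names hold 0.1. The submitters' processing notes name Agilent Feature Extraction 9.1, without background settings. A deposited series matrix gives 221 microRNAs as log2 values, 0 where undetected. Its scale and direction follow the array signal, its normalization and centring stay unknown, and its column medians were 3.19 to 4.06.

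Scaling used the 75th percentile of the 98 human microRNAs present on every array (factors 0.836 to 1.15). The floor of 3.01 is the 5th percentile of detected signals, taken as the median of 12 arrays. A model of 4 group means was fitted to 208 microRNAs, those detected throughout some group (limma 3.58.1, R 4.3.3, lmFit and eBayes). Groups come from the titles, with which the source names of both metformin groups do not match. Bounds against undetected groups use each array's lowest detected human signal, or the floor if that is higher. Replicate pairs shared 0 identical values. Named were the pair, detected family members, let-7a, up to 4 members of each other list with the largest knockdown difference, and the 5 most alike. The members and lists were chosen with earlier results of these data known. Sequences and names are RefSeq's, and all 10 family names matched. Tools were Python 3.11.15, numpy 2.4.6, pandas 2.3.3 and matplotlib 3.10.9.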

Additional observations from a re-analysis of the deposited data

Results flagged for a closer look

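The interaction term of the fit passed its test at 3.73 for miR-103 and 2.99 for miR-107 on the log2 scale, the knockdown difference under metformin minus that under vehicle. Both microRNAs were undetected on the 6 metformin arrays, so each value is the vehicle difference with its sign turned, and whether the knockdown acted differently under metformin could not be measured. Since each treatment lay on a slide of its own, drug and slide cannot be told apart.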

How the results depend on the processing

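Calls and directions of miR-103 and miR-107 were the same under each alternative run for the knockdown with vehicle and metformin in control shRNA cells. This also held for the average over slides and the interaction, which rest on the same vehicle difference. Each run held undetected arrays at a low set value, and the pair was detected almost only in control shRNA with vehicle. The detection pattern thus largely fixed these calls and directions, so their sameness adds no support. Sizes depended on how undetected signals were handled. For the knockdown with vehicle the difference was between -4.72 (series matrix) and -1.96 (16 added to signals, with no floor) for miR-103 and between -4.55 and -1.32 for miR-107. It was -3.62 and -2.89 with undetected signals at each array's own lowest detected signal, a setting chosen after seeing the data. Leaving out 1 array in turn gave -4.20 to -3.49 and -3.10 to -2.82. The -4.20 is without Dicer shRNA, vehicle replicate 3, the array that read miR-103. Without it, metformin minus vehicle in Dicer shRNA cells was 0.00 for miR-103. Scaling to the 75th percentile over all human names equals no scaling, because most names were not detected.

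Among all microRNAs the count called for the knockdown under metformin was 81, and 129 after scaling to the median, 53 after scaling to viral probes and 126 with array weights. For metformin in Dicer shRNA cells it was 51, and 82 with array weights, 19 with only the groups compared, and 32 to 71 with 1 array left out (32 without Dicer shRNA, metformin replicate 3). Splits of higher and lower calls moved with the scaling in all 6 comparisons and stand beside each. Scaling to viral probes put the median difference of all 208 at -0.60 for the knockdown with vehicle and -1.16 for metformin in control shRNA cells, against 0.00 and 0.52.

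Replicate numbers of the labels did not pair the samples. Deviations of same-numbered arrays correlated between -0.18 and 0.32, over 0.1 in 7 of 18 pairs. With the replicate block the knockdown difference with vehicle was -3.73 ± 0.29 for miR-103 and -2.99 ± 0.13 for miR-107, and no call of the pair changed. Detection limits what can be said: with the pair undetected on most arrays, falls beyond the bounds given cannot be sized.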
